A study of Mus musculus with 6 samples.

Results

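The drug-metabolizing cytochrome P450 genes of the CYP2 and CYP3A families were examined in mouse liver with and without Mig-6. Members were all genes whose single symbol in the platform's annotation starts with Cyp2 and a letter or with Cyp3a. Cyp2c70, Cyp2e1 and Cyp2f2 were left out. This gave 37 genes on 44 probe sets, of 18193 genes with a probe set of 1 symbol. By subfamily they were 1 CYP2A, 4 CYP2B, 10 CYP2C, 8 CYP2D, 1 CYP2G, 5 CYP2J, 1 CYP2R, 1 CYP2S, 1 CYP2U and 5 CYP3A genes. Another 2 probe sets of these families carry several symbols and were left out, and so was any gene named on them alone.

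Liver RNA of male mice on a mixed background, 8 weeks old and fasted for 24 h, was hybridized to 6 Affymetrix arrays. Of these, 3 carry the genotype label Mig-6 f/f, the control with floxed alleles, and 3 the label Mig-6 d/d, with the floxed alleles deleted, and all mice ate standard chow under a 12 h light and dark cycle. Mig-6, the product of Errfi1, restrains receptors of the epidermal growth factor family. The promoter that drove the deletion, the cells in which it acted and whether each array holds a separate animal are not given in the sources used here. The p-values therefore measure the spread between these samples, which may be technical.

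Cytochromes P450 of these families are heme enzymes of the smooth endoplasmic reticulum that oxidize drugs, steroids and fatty acids, with electrons delivered by P450 reductase and cytochrome b5. In liver most of them are made by hepatocytes, and many lie toward the central vein. The nuclear receptors CAR and PXR induce several of them, Cyp2b10 and Cyp3a11 being the usual readouts, while HNF4-alpha keeps the basal level of many. Signalling by the epidermal growth factor receptor is known to hold CAR in the cytoplasm. In mice, some members are made mainly in female liver (Cyp2b9, Cyp2b13, Cyp3a16, Cyp3a44) and others mainly in male liver (Cyp2d9). Many lie in tandem clusters of close copies, so a probe set can also bind transcripts of a neighbour.

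RefSeq's promoter table (assembly GRCm38.p6) matched 29 of the 37 members. The 250 bases before the annotated start are shown for 6 of them, the close pair Cyp2b9 and Cyp2b13, of which Cyp2b9 had the largest difference of all members, and Cyp2c37, Cyp2c68, Cyp2d26 and Cyp3a11, which had large or separate differences. Capitals mark matches, on either strand, to 4 patterns: CAAAGTNCA (the type bound by HNF4), TGTTTAC (forkhead), AGGTCA (nuclear receptor half-site) and TTGCNNAA (C/EBP). No match overlapped another in these 6 sequences.
Cyp2b9, GRCm38.p6, chr7:26173159-26173408, plus strand: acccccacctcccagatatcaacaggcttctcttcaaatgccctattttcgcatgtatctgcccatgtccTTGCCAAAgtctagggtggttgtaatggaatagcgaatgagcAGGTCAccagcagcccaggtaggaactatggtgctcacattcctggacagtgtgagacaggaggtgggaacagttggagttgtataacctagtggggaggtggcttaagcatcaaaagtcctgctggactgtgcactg
Cyp2b13, GRCm38.p6, chr7:26061245-26061494, plus strand: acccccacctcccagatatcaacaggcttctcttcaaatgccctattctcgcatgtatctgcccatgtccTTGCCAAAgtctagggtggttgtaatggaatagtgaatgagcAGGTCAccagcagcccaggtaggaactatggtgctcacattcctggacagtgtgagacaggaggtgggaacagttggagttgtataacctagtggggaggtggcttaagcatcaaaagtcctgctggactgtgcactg
Cyp2c37, GRCm38.p6, chr19:39992174-39992423, plus strand: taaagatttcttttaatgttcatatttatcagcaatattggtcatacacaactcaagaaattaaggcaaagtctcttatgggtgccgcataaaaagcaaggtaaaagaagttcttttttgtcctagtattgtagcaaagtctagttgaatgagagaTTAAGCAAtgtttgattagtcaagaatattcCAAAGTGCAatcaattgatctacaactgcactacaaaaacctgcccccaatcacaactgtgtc
Cyp2c68, GRCm38.p6, chr19:39741102-39741351, minus strand: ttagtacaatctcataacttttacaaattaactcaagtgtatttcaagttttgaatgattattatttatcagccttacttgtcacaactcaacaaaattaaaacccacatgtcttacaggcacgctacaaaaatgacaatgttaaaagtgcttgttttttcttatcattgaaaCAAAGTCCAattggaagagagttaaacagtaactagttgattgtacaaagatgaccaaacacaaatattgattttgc
Cyp2d26, GRCm38.p6, chr15:82794246-82794495, minus strand: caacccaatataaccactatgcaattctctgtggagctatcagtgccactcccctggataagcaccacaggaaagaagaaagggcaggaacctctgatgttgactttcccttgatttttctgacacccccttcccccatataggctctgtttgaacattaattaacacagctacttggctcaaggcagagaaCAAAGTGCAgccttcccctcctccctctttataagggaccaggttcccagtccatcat
Cyp3a11, GRCm38.p6, chr5:145879855-145880104, minus strand: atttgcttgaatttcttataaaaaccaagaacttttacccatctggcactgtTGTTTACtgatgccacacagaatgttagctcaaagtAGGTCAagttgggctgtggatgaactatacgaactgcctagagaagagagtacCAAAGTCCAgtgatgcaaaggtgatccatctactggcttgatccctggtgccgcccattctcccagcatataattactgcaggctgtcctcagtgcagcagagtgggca

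The upstream stretches of Cyp2b9 and Cyp2b13 shared 248 of 250 aligned bases, an identity of 99.2%. That of Cyp2c37 was 84.3% identical to the stretch of its neighbour Cyp2c50. Over all pairs within a subfamily, identity ran from 49.2% to 84.3% for CYP2C, 44.7% to 82.8% for CYP2D, 65.1% to 99.2% for CYP2B and 52.7% to 92.9% for CYP3A. The HNF4-type pattern was present in 8 of the 29 members and in 1.19% of all 32851 promoters of the same length. It stood 63 bases before the start in Cyp2c37, 77 in Cyp2c68, 58 in Cyp2d26 and 109 in Cyp3a11, so genes with negative and with positive differences carried it. The forkhead pattern was present in 6 members and 3.17% of all promoters, the half-site in 9 members and 14.0%, and the C/EBP pattern in 7 members and 9.56%. Such a match describes letters and does not show a bound site. Members were counted as genes and the background as promoters. Close copies such as Cyp3a16 and Cyp3a44 both carried the HNF4-type pattern, so the members are not independent, and enrichment was not tested.

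Values below are deposited intensities per array in the order of replicates 1, 2 and 3, and each difference is the d/d mean less the f/f mean of quantile-normalized log2(intensity + 16), with the standard error of limma's fit, from 3 arrays per genotype. Adjusted p-values are limma's after Benjamini-Hochberg adjustment over the 13718 genes tested. The added 16 makes the change of dim genes look smaller. In bulk tissue, fewer cells of a type and less RNA per cell cannot be told apart. Errfi1 checked the labels, at 5494 ± 169 in f/f and 63.2 ± 4.37 in d/d (SD, n = 3). Median intensities of the arrays lay between 55.6 and 65.4. Precision is set by having 3 arrays a group. Replicate 3 of f/f was unlike the rest, with a mean correlation of 0.952 to the other arrays, which had 0.974 to 0.978, and with ribosomal RNA control probe sets averaging 3807 against at most 455.2. Where leaving it out ended or made a call, or moved a difference by over 1.5 times, the value without it is given.

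Of the 37 members, 30 were bright enough to be tested and 7 fell under the dim filter, which left out probe sets in the lowest 40% by mean, at an intensity of 48.4. None of the 30 passed (0 of 30 at an adjusted p of 0.05), where 0.0948% of all genes did. Adjusted p ran from 0.364 for Cyp2d26 to 0.993 for Cyp2s1. An unadjusted p under 0.05 was reached by 4 of the 30, or 13.3%, against 7.84% of all genes. Cyp2d26, Cyp2d13 and Cyp3a11 lay higher in d/d, as 4.77% of all genes did at that p, and Cyp2c68 lay lower, as 3.08% did. After normalization the groups did not overlap for 6 members, or 20.0%, against 14.7% of all genes. Cyp2d10, Cyp2d26 and Cyp3a11 lay higher (7.86% of all genes) and Cyp2c29, Cyp2c68 and Cyp2j6 lower (6.82%). Differences were positive for 14 of the 30, where 46.4% of all genes were positive. The median difference of the 30 was -0.058, and that of all genes was -0.015. The share at an unadjusted p under 0.05 was 8 of 30 (26.7%) without f/f replicate 3, where 11.2% of all genes reached it (5.89% higher and 5.26% lower) and 0.598% passed the adjusted threshold, members 0 of 30. It was 10 of 30 with array weights, against 13.0% of all genes, and 2 of 30 without d/d replicate 2 or d/d replicate 3.

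**Figure D1:**
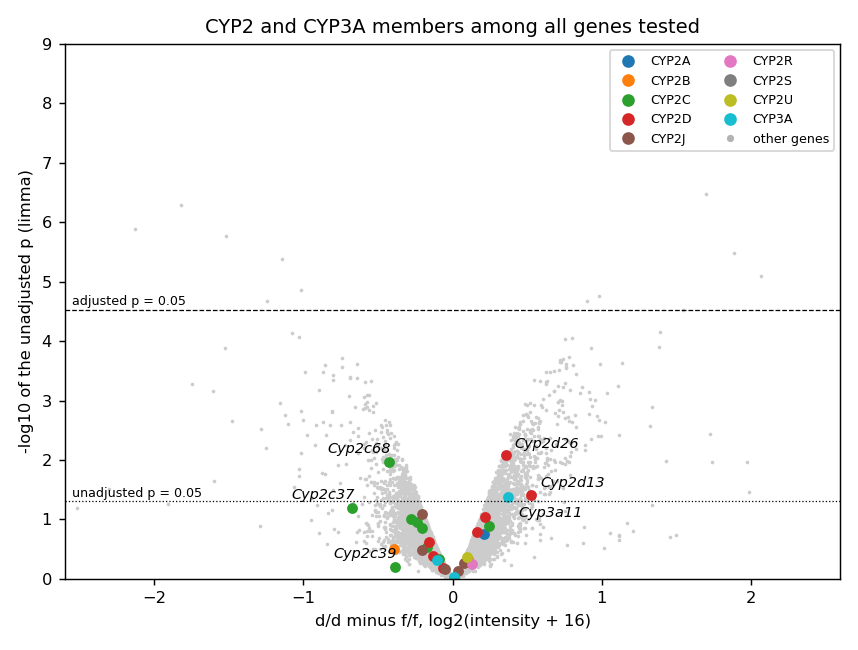
Each grey point is a gene tested, with its difference d/d minus f/f (log2(intensity + 16), horizontal) and the -log10 of its unadjusted p from limma (vertical), and coloured points are the 30 members by subfamily. The 2 genes outside the axes are Errfi1 and Tff3. All members lie under the dashed line of adjusted p = 0.05, and 4 lie above the dotted line of unadjusted p = 0.05.

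**Figure D2:**
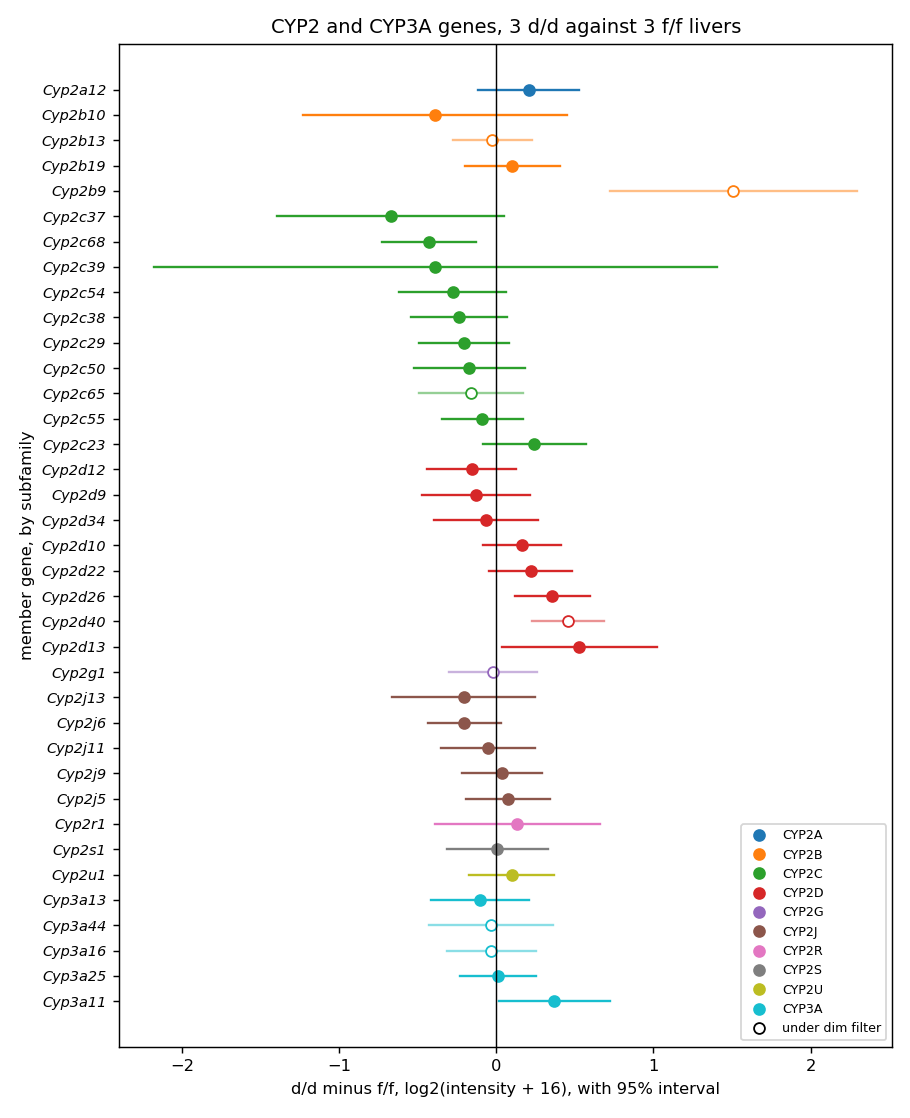
Difference d/d minus f/f of each of the 37 members (log2(intensity + 16), horizontal) with the 95% interval of limma, by subfamily. Open circles are the 7 members under the dim filter, from the fit without that filter. CYP2C genes lie mostly left of 0, and Cyp2b9 lies farthest to the right at 1.51.

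Among the CYP2C genes, which include arachidonate and linoleate epoxygenases, 8 of the 9 tested had a negative difference and 1 a positive one, with 0 past the threshold. Over all genes 53.6% had a negative difference, and 51.9% without f/f replicate 3. The median of the 9 was -0.24. All those with a promoter entry lie on chromosome 19, and the genes share sequence, so they are not 9 independent readings. Cyp2c68 had the smallest p of the group. Its f/f arrays read 2528, 2724 and 1998, and its d/d arrays 1737, 1711 and 1808. All d/d arrays lay below all f/f arrays, with f/f replicate 3 the nearest. The difference was -0.43 ± 0.13, 1.35 times lower on the scale with 16 added (adjusted p = 0.389, 95% interval -0.73 to -0.13). It was -0.55 without f/f replicate 3 (adjusted p = 0.0536). With array weights, which gave that array a weight of 0.178, it was -0.53 and passed, as 1.56% of all genes did (adjusted p = 0.0235). Over all settings tried, its adjusted p spanned 0.0235 to 0.923 (the highest without d/d replicate 1).

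Cyp2c37, an enzyme that acts on arachidonic acid, had the most negative difference of the members tested. It read 5032, 4325 and 2418 in f/f and 3234, 2382 and 1643 in d/d. The groups overlapped through f/f replicate 3, which lay below d/d replicate 1. The difference was -0.67 ± 0.31 (adjusted p = 0.675). It was -0.99 without f/f replicate 3 (adjusted p = 0.141) and -0.43 without d/d replicate 3. Its pooled standard deviation of 0.52 (log2) was larger than that of 98.8% of genes, so this gene varied widely within each genotype as well.

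Cyp2c50 and Cyp2c54, close relatives of Cyp2c37, gave the same order of arrays within f/f. Cyp2c50 read 7439, 8612 and 5705 in f/f and 6087, 6147 and 6022 in d/d. Cyp2c54 read 2997, 3513 and 2445 in f/f and 2599, 2456 and 2153 in d/d. In both, f/f replicate 2 was highest and f/f replicate 3 lowest, and the groups overlapped. The differences were -0.17 ± 0.15 and -0.28 ± 0.15, and without f/f replicate 3 they were -0.33 and -0.41. Leaving out the highest f/f array instead, replicate 2, gave -0.042 and -0.16. With f/f replicate 3 left out, an unadjusted p under 0.05 was reached by 4 of the 9 CYP2C members tested. All lay lower: Cyp2c37, Cyp2c50, Cyp2c54 and Cyp2c68. Of all genes 11.2% reached it in that fit, 5.26% lower. The CYP2C genes share sequence, so these are not 4 independent readings. Replicate 3 was the lowest f/f array for 6 of the 9 CYP2C members and for 42.7% of all genes.

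Cyp2c29, an abundant CAR-responsive member, read 5059, 5943 and 5253 in f/f and 4039, 4870 and 5066 in d/d. The deposited ranges touched, and after normalization all d/d arrays lay below f/f. Its difference was -0.21 ± 0.12, and -0.10 without d/d replicate 1. Cyp2c38, which acts on arachidonic acid, read 364.4, 327.9 and 444.5 in f/f and 295.1, 313.3 and 344.8 in d/d, with a difference of -0.24 ± 0.13, or -0.12 without f/f replicate 3. Cyp2c55, known from the gut and from induced liver, stood near the dim limit at 56.9 ± 3.41 and 51.9 ± 6.58 (SD, n = 3). Its difference was -0.088 ± 0.11.

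Cyp2c39, a retinoic acid hydroxylase, showed the widest spread of the members. It read 625.4, 81.7 and 843.3 in f/f and 149.4, 240.3 and 576.6 in d/d. Each genotype held arrays with high and with low values. The pooled standard deviation was 1.35 (log2), above that of 99.9% of genes, and the difference of -0.39 ± 0.78 had a 95% interval from -2.18 to 1.40. Leaving out f/f replicate 2 gave -1.35, and leaving out f/f replicate 3 gave 0.19. Cyp2c23, an arachidonate epoxygenase, was the exception among the CYP2C genes with a positive difference. It read 2034, 1717 and 1431 in f/f and 2090, 1875 and 2036 in d/d. The difference was 0.24 ± 0.14, and became 0.13 with f/f replicate 3 left out and 0.37 with f/f replicate 1 left out. Cyp2c70, which makes muricholic acids and was not among the members, lay higher as well, at 0.51 ± 0.14 (adjusted p = 0.309).

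**Figure D3:**
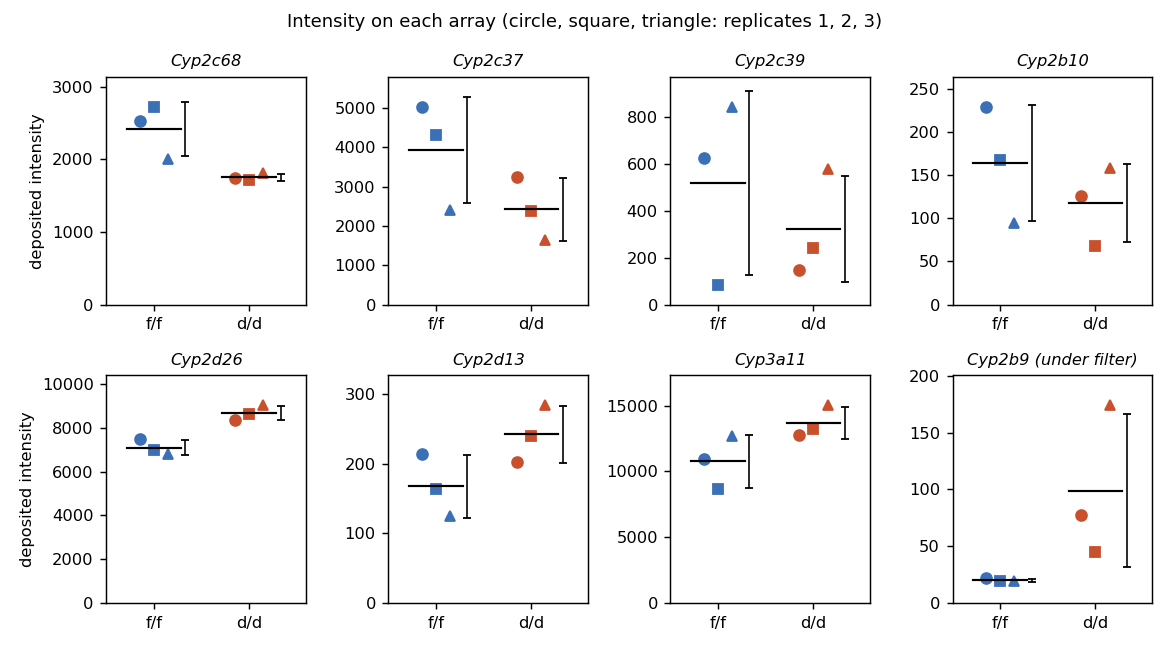
Deposited intensity (vertical, from 0) of 8 members on each array, f/f in blue and d/d in red, with circles, squares and triangles for replicates 1, 2 and 3, a bar at the mean and a whisker for the SD (n = 3). Cyp2c68, Cyp2d26, Cyp3a11 and Cyp2b9 show groups that do not overlap, while Cyp2c39 spans 81.7 to 843.3 within f/f alone.

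Among the CYP2D genes, 4 of 7 tested had a positive difference and 3 a negative one, with a median of 0.16 and 0 past the threshold. Cyp2d26 had the smallest p of all members tested. It read 7489, 6981 and 6828 in f/f and 8391, 8657 and 9049 in d/d. Every d/d array lay above every f/f array. The difference was 0.36 ± 0.10, or 1.28 times higher on the scale with 16 added (adjusted p = 0.364, 95% interval 0.12 to 0.59), and with 1 array left out it ran from 0.33 to 0.41. Cyp2d10 read 8610, 7746 and 8399 in f/f and 8992, 8734 and 9193 in d/d. The groups did not overlap here either, with a difference of 0.16 ± 0.11.

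Cyp2d13 had the most positive difference among the members tested. It read 214.5, 164.0 and 124.8 in f/f and 202.4, 240.4 and 284.6 in d/d. Only f/f replicate 1 reached the d/d range. The difference was 0.53 ± 0.21 (adjusted p = 0.594), and 0.31 without f/f replicate 3 against 0.73 without f/f replicate 1. Its second probe set, at 107 ± 21.6 in f/f and 169 ± 15.3 in d/d (SD, n = 3), had 0.62, and there the groups did not overlap. Cyp2d22 read 923.1, 818.7 and 996.4 in f/f and 1073, 1099 and 976.6 in d/d, a difference of 0.22 ± 0.11 (0.15 without f/f replicate 2), and its second probe set had 0.11.

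Cyp2d9, a steroid hydroxylase made mainly in male liver, read 9429, 7226 and 9689 in f/f and 7713, 7335 and 8131 in d/d. The d/d arrays lay within the f/f range, and the difference was -0.13 ± 0.15 (95% interval -0.47 to 0.21). Cyp2d12 and Cyp2d34 stood near the dim limit, with differences of -0.16 ± 0.12 and -0.064 ± 0.14. Cyp2d40, under the dim filter, read 26.5, 30.3 and 35.2 in f/f and 48.0, 47.3 and 46.2 in d/d. All d/d arrays lay above all f/f arrays, and every value was below the dim limit. Without the filter its difference was 0.46 ± 0.10 (unadjusted p = 0.00152 and adjusted p = 0.212).

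Of the CYP3A genes, 3 were tested and 0 passed. Cyp3a11, the main inducible CYP3A enzyme of mouse liver and a PXR target, read 10947, 8686 and 12684 in f/f and 12768, 13219 and 15034 in d/d. All d/d arrays lay above f/f, by a small margin over f/f replicate 3. The difference was 0.37 ± 0.15, or 1.29 times higher on the scale with 16 added (adjusted p = 0.611, 95% interval 0.016 to 0.72). Leaving out f/f replicate 2 gave 0.21 and leaving out f/f replicate 3 gave 0.47. Cyp3a25 read 8631, 8174 and 7714 in f/f and 7926, 8157 and 8151 in d/d, a difference of 0.011 ± 0.10 with a 95% interval from -0.23 to 0.25. Cyp3a13 read 2015, 2613 and 2191 in f/f and 1920, 2366 and 1927 in d/d, a difference of -0.10 ± 0.14. Cyp3a16 and Cyp3a44, made mainly in female liver, were under the dim filter at 14.0 ± 3.19 and 41.4 ± 15.4 in f/f and at 13.0 ± 2.50 and 38.2 ± 5.91 in d/d (SD, n = 3).

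Cyp2b9, another gene made mainly in female liver, had the largest difference of all 37 members, on a probe set that the dim filter left out. It read 21.7, 18.9 and 19.4 in f/f and 77.8, 44.8 and 174.1 in d/d. The f/f arrays were close together and low, and the d/d arrays were all higher and far apart, with d/d replicate 2 still below the dim limit. Means were 20.0 ± 1.47 and 98.9 ± 67.2 (SD, n = 3). In the fit without the filter the difference was 1.51 ± 0.35, or 2.85 times higher on the scale with 16 added (unadjusted p = 0.00196 and adjusted p = 0.234). Of 18193 genes in that fit, 7.27% reached an unadjusted p under 0.05, and 0.0770% passed. Leaving out d/d replicate 3 gave 1.05 and leaving out d/d replicate 2 gave 1.90. The difference was 0.88 with a pseudocount of 64 and 2.03 with a pseudocount of 1.

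Its near copy Cyp2b13, with the nearly identical upstream stretch shown above, was low on all arrays. It read 37.2, 33.8 and 48.3 in f/f and 41.2, 39.7 and 33.1 in d/d, a difference of -0.024 ± 0.11 without the filter. Whether Cyp2b9 and Cyp2b13 differ in their response was not tested. Cyp2b10, the classic CAR target induced by phenobarbital, read 228.9, 167.4 and 94.5 in f/f and 126.1, 68.2 and 158.1 in d/d. The groups overlapped, and the difference was -0.39 ± 0.37 (95% interval -1.23 to 0.45). It was -0.75 without f/f replicate 3 and -0.63 without d/d replicate 3, but -0.11 without f/f replicate 1 and -0.073 without d/d replicate 2. Its other probe sets had -0.38 and -0.25. On the last of these, the single one whose name does not mark shared probes, all d/d arrays lay below f/f. Cyp2b19, an epoxygenase known from skin, had 0.10 ± 0.13.

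Cyp2a12, a steroid hydroxylase, was the single CYP2A gene with a probe set of its own. It read 4431, 3766 and 4324 in f/f and 4073, 4876 and 5415 in d/d, with overlapping groups and a difference of 0.21 ± 0.14. It was 0.32 without d/d replicate 1, 0.11 without d/d replicate 3 and 0.13 without f/f replicate 2. All 5 CYP2J genes were tested, with differences from -0.21 to 0.074 and 0 past the threshold. Cyp2j5, an arachidonate epoxygenase of liver and kidney, read 2429, 2446 and 2139 in f/f and 2202, 2344 and 2646 in d/d, a difference of 0.074 ± 0.12. Cyp2j6 read 250.5, 220.1 and 243.3 in f/f and 197.0, 208.1 and 208.2 in d/d. Its d/d arrays all lay below f/f, with a difference of -0.20 ± 0.10, while its dimmer probe set had 0.039 and the mean of both -0.082. Cyp2j9, Cyp2j11 and Cyp2j13 had 0.039 ± 0.11, -0.053 ± 0.13 and -0.21 ± 0.20. For Cyp2j13 leaving out f/f replicates 3, 2 or 1 gave -0.051, -0.12 and -0.45.

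The remaining members are single genes of their subfamilies. Cyp2r1, the vitamin D hydroxylase of liver, read 121.8, 178.8 and 91.3 in f/f and 126.8, 139.1 and 146.9 in d/d. The d/d arrays lay within the f/f range, with a difference of 0.13 ± 0.23. Cyp2u1, a fatty acid hydroxylase, read 113.1, 96.6 and 114.1 in f/f and 129.7, 113.0 and 101.8 in d/d, a difference of 0.098 ± 0.12, and its dimmer probe set had -0.15. Cyp2s1, known from epithelia outside the liver, had 0.0065 ± 0.14. Cyp2g1, an enzyme of olfactory mucosa, and Cyp2c65, known from the gut, were under the dim filter at 29.1 ± 3.13 and 37.7 ± 11.3 in f/f and 28.2 ± 4.20 and 31.2 ± 6.83 in d/d (SD, n = 3).

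**Figure D4:**
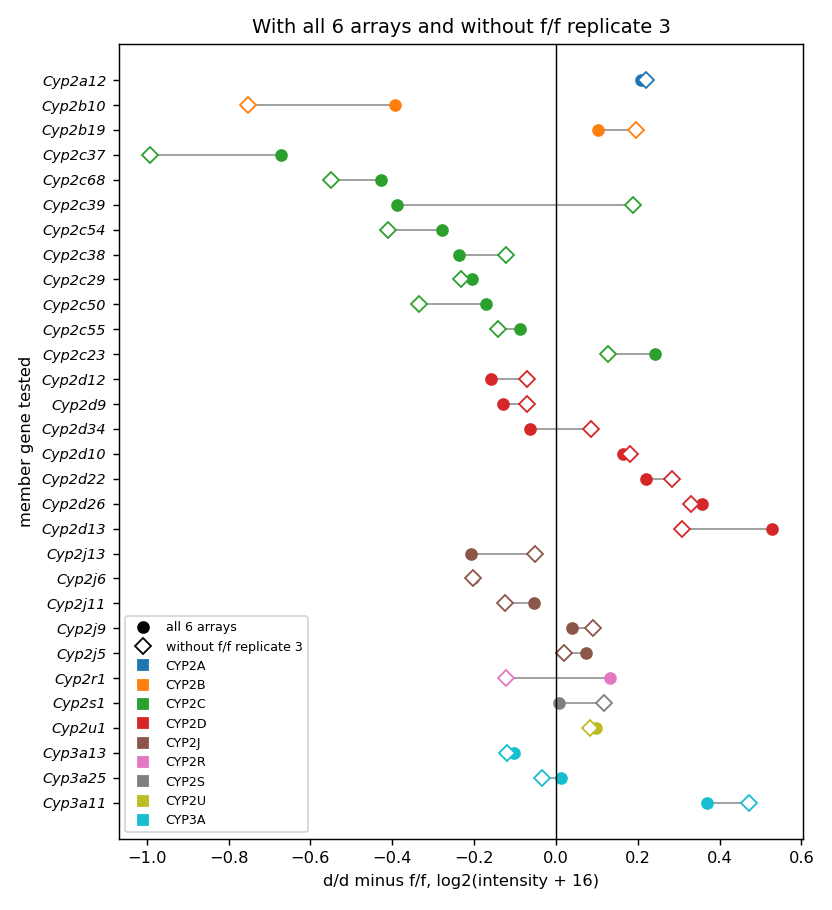
Difference d/d minus f/f (log2(intensity + 16), horizontal) of the 30 members tested, with all 6 arrays (filled circles) and without f/f replicate 3 (open diamonds, which cover the circle where both coincide). Cyp2c37 and Cyp2b10 move farther left, to -0.99 and -0.75, and Cyp2c39 crosses 0 to 0.19.

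Without f/f replicate 3, differences were negative for 7 of 9 CYP2C and positive for 5 of 7 CYP2D members. The groups then did not overlap for 14 of 30 members, or 46.7%, against 27.9% of all genes, with 6 members higher (13.5% of all genes) and 8 lower (14.4%). Of these, 6 were CYP2C genes, all lower, and 4 were CYP2D genes, all higher. Within groups the members varied about as much as other genes, with a median pooled standard deviation of 0.17 (log2) where all genes had 0.16. Cyp2j6 and Cyp2d26 were among the steadiest, at 0.067 and 0.072.

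Genes that act on or with these enzymes were read from lists. Of the 25 tested regulators 0 passed, and 2 had an unadjusted p under 0.05, both higher, as 4.77% of all genes were at that p. PXR (Nr1i2) had -0.13 ± 0.17, CAR (Nr1i3) -0.23 ± 0.18 (-0.39 with f/f replicate 3 left out, -0.080 with f/f replicate 1 and -0.14 with d/d replicate 1 left out) and their shared partner Rxra -0.088 ± 0.11. Without f/f replicate 3 Rxra had -0.020. Hnf4a had -0.017 ± 0.11 and Ahr, the receptor for aromatic hydrocarbons, 0.087 ± 0.23. Of 13 genes for electron transfer and heme supply, 0 passed, and Cyb5a, the cytochrome b5 of the microsomes, had -0.0028 ± 0.10. Alas1, which makes the first step of heme synthesis and is itself induced with these enzymes, read 1709 ± 456 in f/f and 2545 ± 371 in d/d (SD, n = 3). Its groups did not overlap, and its difference was 0.63 ± 0.19 (adjusted p = 0.398). It passed without f/f replicate 3 at an adjusted p of 0.0448, and at 0.0215 under array weights.

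In the list of members known as CAR or PXR targets, 7 of 9 tested had a negative difference, where 53.6% of all genes did. None passed, and the median was -0.17. The negative ones were Cyp2b10, Cyp3a13 and the CYP2C genes Cyp2c29, Cyp2c37, Cyp2c50, Cyp2c54 and Cyp2c55. These CYP2C genes were already counted above, so the list is not a separate reading. Cyp3a11 and Cyp3a25 were the positive ones. Among the P450s of families 1 and 4, 0 of 12 passed. An unadjusted p under 0.05 was reached by 3, all lower, as 3.08% of all genes were. They were Cyp1a2 (-0.28 ± 0.12), which oxidizes aromatic amines, and Cyp4a12a (-0.52 ± 0.19) and Cyp4a14 (-1.60 ± 0.57), which hydroxylate fatty acids. Of 21 other oxidation and hydrolysis enzymes 0 passed. Aldh1b1, an aldehyde dehydrogenase, had 1.34 ± 0.28 and Ces2e, a carboxylesterase, 0.71 ± 0.15. With array weights both passed, at adjusted p of 0.0361 and 0.0370, and Aldh1b1 also did without f/f replicate 2, at 0.0422. Of 27 conjugation enzymes 0 passed and 20 had a negative difference, with a median of -0.12, where 53.6% of all genes were negative. At an unadjusted p under 0.05, 2 lay higher, as 4.77% of all genes did, and 5 lower, as 3.08% did. The groups did not overlap for 7, against 14.7% of all genes. Gstm2, a glutathione transferase, had -0.92 ± 0.21. It passed without f/f replicate 3 (adjusted p = 0.0128) and with array weights (0.00669). Of 9 drug transporters 0 passed and 7 had a negative difference, where 53.6% of all genes did.

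Genes with sex-biased levels in liver were read next. The list of members higher in female liver held 12 names, of which 7 had a probe set of 1 symbol, 2 were tested (Cyp2b10 and Cyp2c39) and 0 passed, and 5 were under the dim filter, Cyp2b9 among them. The 2 male-biased members, Cyp2d9 and Cyp2u1, differed in sign. Outside these families, 7 of 10 male-biased genes had a negative difference and 0 passed, with Moxd1, a monooxygenase-like gene, at -1.53 ± 0.23 (adjusted p = 0.0858). Moxd1 passed when f/f replicate 3 was left out (0.0331) and under array weights (0.00761). Of 6 female-biased genes tested, 2 had a positive difference and 0 passed.

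Zonation markers were read beside the CYP2C and CYP2D values. All 8 pericentral markers tested had a negative difference, with 0 past the threshold, 3 at an unadjusted p under 0.05 and a median of -0.20. Over all genes 53.6% were negative and 3.08% lay lower at that p. The groups did not overlap for 4 of the 8, against 14.7% of all genes. Their summed intensity ran from 37647 to 39954 in f/f and from 31186 to 32064 in d/d, and Lgr5 was under the dim filter. Most of these sums of deposited intensities was Cyp2e1, with means of 23565 in f/f and 20736 in d/d. The means of Oat were 6222 and 3435. Oat, an aminotransferase of pericentral cells, had -0.80 ± 0.14 (adjusted p = 0.114). It passed with f/f replicate 3 left out (0.0112), under array weights (0.00399) and with limma's trend and robust options (0.0497). Cyp2e1, the ethanol-oxidizing P450, had -0.15 ± 0.097 (95% interval -0.37 to 0.072). Of 6 periportal markers 3 had a positive difference, 0 passed, and the median was 0.0060. Their summed intensity ran from 43010 to 44182 in f/f and from 44280 to 48131 in d/d. Cyp2f2, a periportal P450, had 0.25 ± 0.12 and Hsd17b13, a lipid droplet enzyme, 0.62 ± 0.13. For Hsd17b13 the mean of its probe sets had 0.27 (adjusted p = 0.432), and array weights gave an adjusted p of 0.0277. The part of zonation in the member values was not tested.

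Markers of hepatocytes were bright in every array, at a summed intensity of 115593 to 118357 in f/f and 121767 to 122955 in d/d over 5 genes. Of 9 Kupffer cell markers 8 had a negative difference, where 53.6% of all genes did. Their sums ran from 2365 to 3437 in f/f and 2049 to 2660 in d/d. Stellate markers summed to 2882 to 3356 and 2235 to 2897, and endothelial markers to 1466 to 1565 and 1412 to 1593. Of the 5 cholangiocyte markers, Krt19 and Krt7 were under the dim filter and 2 were tested, with sums of 102 to 153 and 115 to 123. Sums of lymphocyte markers were 314 to 486 and 359 to 470, and those of red cell markers 765 to 851 and 689 to 919. Intestinal markers summed to 764 to 1023 in f/f and 654 to 666 in d/d, kidney markers to 96.1 to 147 and 78.1 to 112, and the 1 lung marker tested read 177 to 374 and 144 to 201. At an unadjusted p under 0.05, 1 of 9 Kupffer, 1 of 7 stellate and 2 of 3 intestinal markers lay lower (3.08% of all genes). At that p, 1 of 4 lymphocyte markers lay higher (4.77%). Groups did not overlap for 3 of 5 hepatocyte, 2 of 9 Kupffer, 1 of 7 stellate, 1 of 4 lymphocyte and 2 of 3 intestinal markers (14.7% of all genes). In these lists 0 genes passed, and their part in the member values was not tested.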

How the data were processed

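Per the labels' protocols, Trizol RNA was biotin-labelled for Affymetrix hybridization. The authors deposited an intensity on a linear scale for each of 45101 probe sets on 6 arrays. Probe summary, background correction and scaling are not given in the sources used here. Names come from GEO's platform table, in which 34945 probe sets had 1 symbol, 932 several and 9160 none, besides 64 control probe sets. Of those with 1 symbol, 34741 were found in RefSeq's gene table (GRCm38.p6). Of the 44 member probe sets, 4 end in _s_at, a suffix for probes shared between transcripts.

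Values were taken as log2(intensity + 16) and quantile normalized over the probe sets that are not controls. Each gene was read from its brightest probe set, and those in the lowest 40% (under 6.01 on the log2 scale) were dropped. R 4.3.3 with limma 3.58.1 (lmFit, eBayes) gave the genotype contrast, with 4.18 prior and 4 residual degrees of freedom and Benjamini-Hochberg adjustment over 13718 genes. On 10 simulated sets with 200 changed genes the test called 34.8% of 1.5-fold changes, 73% at 2-fold, 97.6% at 4-fold and 99.4% at 8-fold. It made 158.6 calls a set on average, 6.2 of them false, and 0 in a single set without changes. Simulated noise was normal, independent between genes and alike for all arrays, so no array stood out as f/f replicate 3 did. In the real data 13 genes passed, which makes the adjusted threshold stricter, so these rates may be too high for the members. Promoters were aligned with Biopython 1.88. Other tools were pandas 2.3.3 and matplotlib 3.10.9 in Python 3.11.15.

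Members and gene lists were chosen with earlier results of these data known. Every member may be named. Values on all arrays are printed for members with an unadjusted p under 0.05 or separate groups. They are also printed for the brightest of each subfamily except CYP2S and CYP2G, and for most well-known members. Cyp2c55, Cyp3a16 and Cyp3a44 are given as means. Cyp2c23, Cyp2c38, Cyp2c39, Cyp2c50, Cyp2c54, Cyp2d22, Cyp2d40, Cyp3a13 and Cyp3a25 were added to the printed members after their values were seen. Other genes are named from a fixed set and as the smallest p of a list. Tff3 is named because it lies outside a plot. Alternatives covered scaling, the dim filter, the probe set, the variance model, array weights, the replicate block, each array left out, the pseudocount and the threshold. Single arrays were not tested as outliers in groups of 3.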

Additional observations from a re-analysis of the deposited data

How the results depend on the processing

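No member passed under any alternative run except array weights, where 1 did, Cyp2c68. The count was 0 in each fit with 1 array left out. The median over members was -0.058, and ran from -0.043 to -0.017 with 1 array left out. It was 0.011 with the lowest 60% left out. The count at an unadjusted p under 0.05, which like the count of separate groups without f/f replicate 3 (14, against 6 with it) was chosen after seeing the data, was 4, and 10 with array weights, 8 without f/f replicate 3 and 2 without d/d replicate 2 or 3. Same-numbered arrays of the genotypes did not deviate together (correlations of -0.0032, -0.14 and -0.47). With 3 arrays a group this cannot show whether the numbers pair the samples, which the labels do not say. With the replicate block, 0 members and 1 of all genes passed, against 13 without it.

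Signs turned for the differences given next. With array weights Cyp2d34 had 0.053, Cyp2r1 -0.11, Cyp3a25 -0.019, Hnf4a 0.029, and Ahr -0.15. With the values as deposited Cyp2s1 had -0.011 and Cyp3a25 -0.015. Averaged over its probe sets Cyp2u1 had -0.025, and on a probe set without shared probes Hnf4a had 0.21. With 1 array left out, the range was -1.35 to 0.19 for Cyp2c39, -0.17 to 0.086 for Cyp2d34, -0.13 to 0.057 for Cyp2j11, -0.0024 to 0.13 for Cyp2j5, -0.038 to 0.090 for Cyp2j9, -0.12 to 0.38 for Cyp2r1, -0.11 to 0.12 for Cyp2s1, -0.033 to 0.071 for Cyp3a25, -0.22 to 0.014 for Nr1i2, -0.20 to 0.28 for Ahr, -0.030 to 0.032 for Cyb5a and -0.088 to 0.043 for Hnf4a. The causes were not tested. Signal limits the 7 members under the dim filter, whose values have no test in the fit with it.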
